A study of Bos taurus with 2 samples.

Results

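The 9 genes described here encode ligands and receptors that vessels and their neighbouring cells use to signal to each other: VEGFA, VEGFC, KDR, FLT1, ANGPT2, TEK, PDGFB, PDGFRA and PDGFRB. They were taken by name from the 27270 genes measured, and each name belonged to 1 gene of the tables. Single cells of Holstein mammary gland were profiled at a pair of stages, with 1 library labelled as lactating adult and 1 labelled as newborn. The tissue of both libraries was freed of fat, digested with hyaluronidase and collagenases and strained, per the labels' protocols, and the labels give neither an age nor the number of animals behind a library. Cells were assigned to types (gates) by raw counts of other lineage markers, none of which was a member, so the levels below were not used to form the gates.

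Vascular endothelial growth factors are secreted proteins that act on receptor tyrosine kinases of endothelial cells. VEGFA, whose transcription rises in low oxygen, binds KDR (VEGFR2), the main growth receptor of blood vessels, and FLT1 (VEGFR1), which binds it tightly but signals weakly and can act as a decoy. VEGFC is the chief lymphatic growth factor and acts through FLT4 (VEGFR3) and, once processed, KDR. Angiopoietins are ligands of TEK (TIE2): ANGPT1 keeps vessels quiet, and ANGPT2, made by endothelial cells themselves, can block or activate the receptor depending on context. PDGFB of endothelial cells draws pericytes through PDGFRB, while PDGFRA marks fibroblasts and their precursors and is the receptor of PDGFA. Blood vessels of the mammary gland expand around lactation, when milk synthesis needs a large blood supply.

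The adult library held 15897 barcodes and 85388618 unique molecules (UMIs), and the newborn library 13772 barcodes and 65597671 UMIs. The median barcode had 2723 UMIs in the adult library, against 4581 UMIs in the newborn library. A limit of at least 300 genes and at most 20% mitochondrial UMIs left 14691 and 13710 barcodes. The study states 24472 cells, beside 29669 barcodes in the files, 28401 after this limit and 25524 in a gate. The libraries shared 57 barcode sequences. With 1 library per stage there is no replicate check and no test, and the stage cannot be told apart from the animal, the handling of the tissue or the library. Levels are CPM, the UMIs of a gene over all UMIs of the same barcodes, multiplied by 1e6, with exact Poisson intervals of 95%, shares of barcodes have exact (Clopper-Pearson) intervals, and these intervals cover counting error only. A count of 0 is given with the level that 3 UMIs would have in that gate, taken as its limit. UMIs were not corrected for transcript length, so levels are compared between gates and libraries but not between genes.

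The cells available to send and to receive differed between the stages. T or NK cells made up 47.0% of kept adult barcodes (6911), followed by lymphatic endothelial cells (2545), luminal epithelial cells (855), neutrophils (622), milk-secreting cells (400), mast cells (350), fibroblasts (246), macrophages (222) and blood endothelial cells (171). In the newborn library, fibroblasts made up 89.0% (12197), beside 603 mast cells, 96 T or NK cells, 73 lymphatic and 25 blood endothelial cells, 31 neutrophils and 15 macrophages. No newborn barcode met the epithelial gate, and the mural gate of pericytes and smooth muscle took 1 barcode in each library, so the cells that classically carry PDGFRB were almost missing. Removal of fat, digestion and straining can set these numbers.

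The receptors lay in endothelial cells and fibroblasts, while the ligands came from several cell types. In the adult, 3 of the 9 genes (KDR, ANGPT2, TEK) were at least 4-fold higher in lymphatic endothelial cells than in all other gated barcodes, a size that 11.1% of all genes reached there. In adult blood endothelial cells they were VEGFC, FLT1 and TEK (3 of 9, against 3.69% of all genes), and in adult fibroblasts VEGFC, PDGFRA and PDGFRB (3 of 9, against 8.86%). VEGFA was the 1 gene of the 9 that passed 4-fold in adult mast cells (2.99% of all genes), macrophages (5.94%) and neutrophils (6.09%). In the newborn, KDR, ANGPT2, TEK and PDGFB passed in lymphatic endothelial cells (4 of 9, against 7.23%) and VEGFC, KDR, FLT1 and TEK in blood endothelial cells (4 of 9, against 5.24%). PDGFRA and PDGFRB passed in newborn fibroblasts (2 of 9, against 5.69%) and PDGFB in newborn T or NK cells (1 of 9, against 7.75%). None of the 9 passed in adult luminal cells (9.43% of all genes), T or NK cells (6.6%), basal cells (3.82%), B cells (2.61%), plasma cells (2.2%) or milk-secreting cells (1.07%), nor in newborn mast cells (5.8%) or neutrophils (5.85%).

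**Figure D1:**
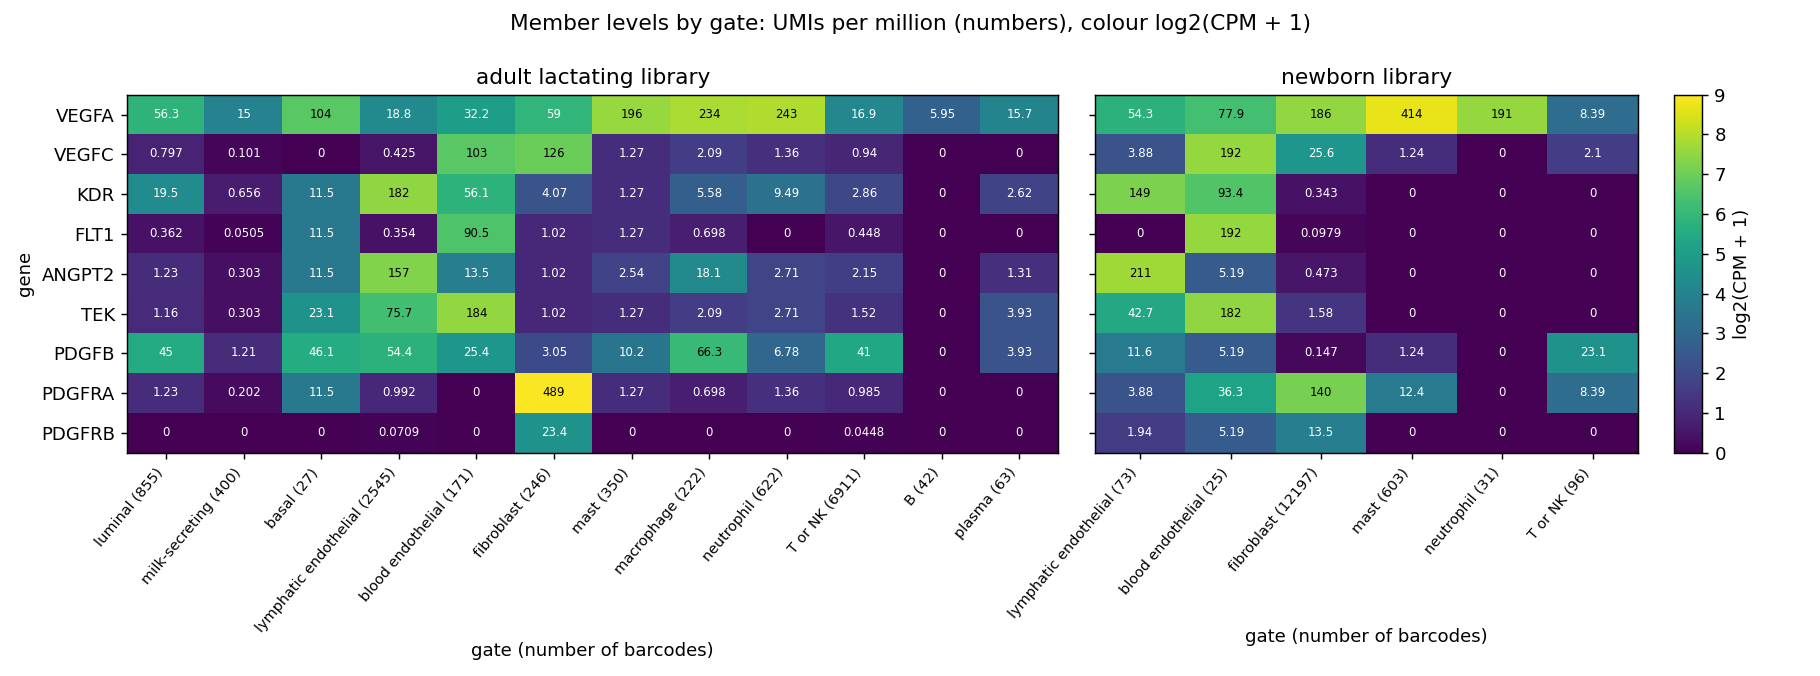
Level of each of the 9 genes (rows) in each gate of at least 20 barcodes (columns), adult library on the left and newborn library on the right. Numbers in the cells are CPM and colour is log2(CPM + 1). The receptor rows are bright in the endothelial or fibroblast columns, while VEGFA and PDGFB are spread over immune, luminal and vascular columns.

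VEGFA (ENSBTAG00000005339) was a transcript of myeloid and mast cells in the adult and of mast cells and fibroblasts in the newborn. Its adult level was 243 CPM (208 to 281) in neutrophils, 234 CPM (209 to 260) in macrophages and 196 CPM (166 to 229) in mast cells. These 3 gates had overlapping intervals and lay above every other adult gate with at least 50 UMIs of the gene. Among the gates with that count, luminal cells followed at 56.3 CPM (52.4 to 60.4). Fibroblasts at 59.0 CPM (44.8 to 76.3) were not separated from luminal cells by their intervals. The 27 basal barcodes fell below that count and were not ranked. They had 9 UMIs, 0.309% of adult VEGFA UMIs beside 0.103% of all UMIs. The adult fibroblast value rested on 58 UMIs in 27 of 246 barcodes, 10 of them in 1 barcode. Blood endothelial cells had 32.2 CPM, lymphatic endothelial cells 18.8 CPM, T or NK cells 16.9 CPM and milk-secreting cells 15.0 CPM.

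In the newborn, VEGFA stood at 414 CPM (371 to 461) in mast cells and at 186 CPM (183 to 190) in fibroblasts, intervals that did not overlap. The 31 neutrophils had 191 CPM on 11 UMIs, and the 15 macrophages 131 CPM on 19 UMIs. Blood endothelial cells had 77.9 CPM, lymphatic endothelial cells 54.3 CPM and T or NK cells 8.39 CPM on 4 UMIs. Mast cells thus led the newborn gates of at least 20 barcodes. The 7 newborn barcodes of the adipocyte gate had 430 CPM (263 to 664).

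Shares of barcodes with VEGFA gave the same leading gates at a common depth. With each barcode thinned to 1000 UMIs, VEGFA was found in 23.2% of adult neutrophils (17.2% unthinned), 18.2% of macrophages (46.4%) and 17.5% of mast cells (28.3%). Of the 622 neutrophils, 194 were deep enough to be thinned. The thinned share was 6.01% (4.45 to 7.91) in luminal cells, against 1.59% in T or NK cells, which are taken as background here at median depths of 11465 and 2824 UMIs. Adult fibroblasts stood at 1.43% (0.296 to 4.12), no higher than that background. Newborn mast cells stood at 30.4% (26.1 to 35.0) and newborn fibroblasts at 14.3% (13.6 to 14.9), while 0 of 93 newborn T or NK cells had a UMI after thinning.

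The number and the depth of barcodes change which gate holds most of the message. Of all VEGFA UMIs in kept adult barcodes, 26.6% were in luminal cells, 12.9% in T or NK cells, 11.5% in macrophages, 10.2% in milk-secreting cells, 9.08% in lymphatic endothelial cells, 6.14% in neutrophils and 5.28% in mast cells. In the newborn library, 93.1% were in fibroblasts. Luminal cells were 5.82% of kept adult barcodes with 16.4% of all UMIs, and neutrophils 4.23% of barcodes with 0.875% of all UMIs. A large share in a large or deeply counted gate is therefore not in itself a high CPM. CPM is a share of UMIs and not a number of molecules per cell.

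**Figure D2:**
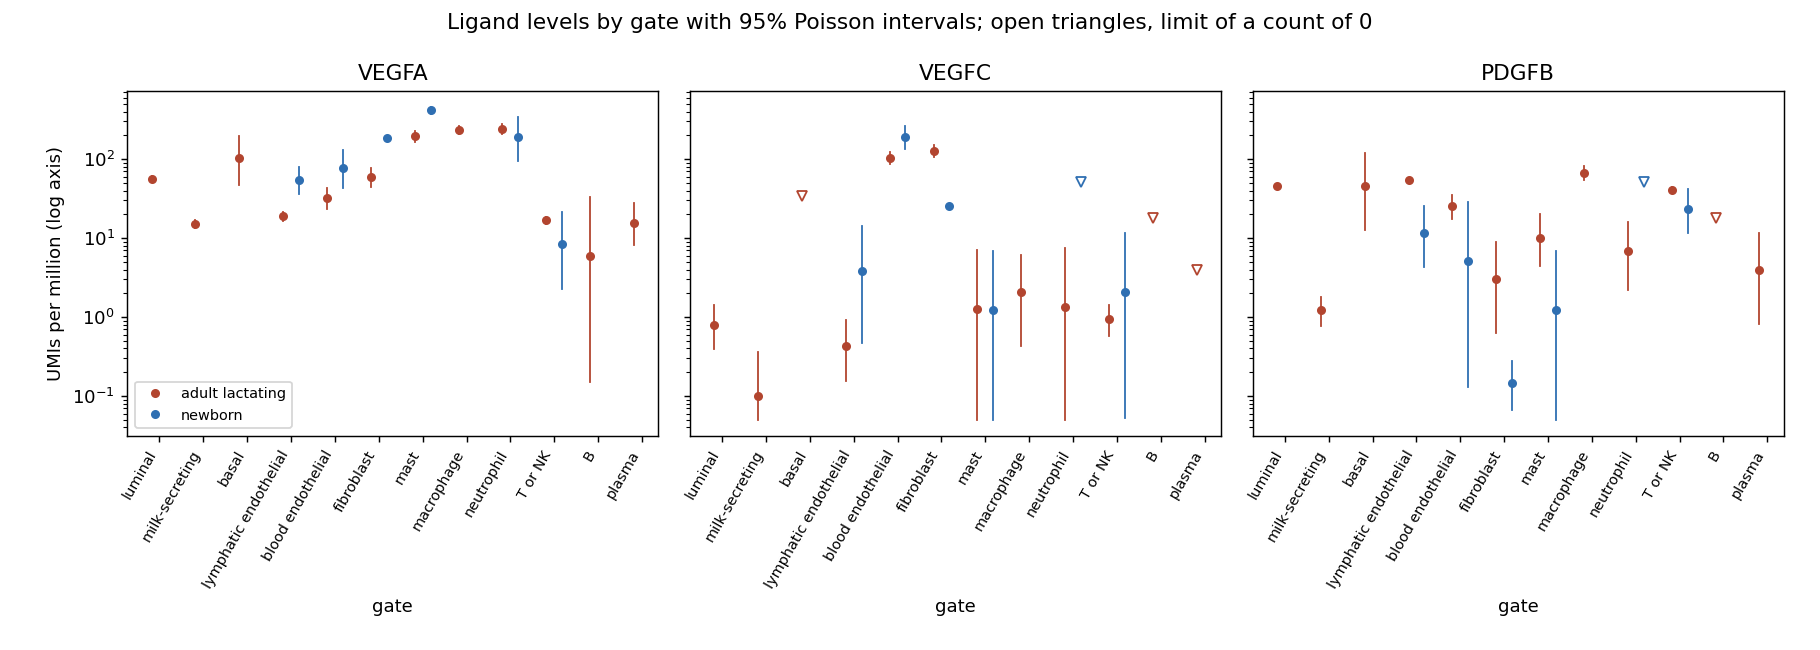
Level of the ligands VEGFA, VEGFC and PDGFB in CPM on a log axis, by gate, with adult values in red left of newborn values in blue. Bars are 95% Poisson intervals of 1 library each, with lower ends cropped at 0.05 CPM, and open triangles mark the limit that a count of 0 allows. VEGFA is high in neutrophils, macrophages and mast cells, VEGFC in fibroblasts and blood endothelial cells, and PDGFB is spread over several adult gates.

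VEGFC (ENSBTAG00000014737) was found mainly in fibroblasts and blood endothelial cells, and hardly in lymphatic endothelial cells. Its receptor FLT4 was highest in lymphatic endothelial cells, but adult blood endothelial cells also held it, at 64.3 CPM (51.5 to 79.4). Newborn blood endothelial cells had 0 UMIs of FLT4. In the adult it stood at 126 CPM (105 to 150) in fibroblasts, present in 29.3% of them, and at 103 CPM (86.7 to 122) in blood endothelial cells, present in 26.9%. Lymphatic endothelial cells had 6 UMIs (0.425 CPM) and T or NK cells 0.940 CPM. In the newborn it stood at 192 CPM (135 to 265) in the 25 blood endothelial barcodes, where 13 of 37 UMIs came from 1 barcode, at 25.6 CPM (24.4 to 26.9) in fibroblasts and at 3.88 CPM on 2 UMIs in lymphatic endothelial cells. The adult message was split between blood endothelial cells (39.4% of UMIs) and fibroblasts (35.4%), whereas 96.0% of newborn UMIs were in fibroblasts.

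Other ligands of the family were found in fibroblasts, and VEGFB and PGF in other cells too. VEGFD, a second lymphatic growth factor, stood at 105 CPM in adult and 15.2 CPM in newborn fibroblasts. VEGFB stood at 116 CPM in adult and 56.9 CPM in newborn fibroblasts, at 55.8 CPM in adult macrophages, at 50.8 CPM in adult mast cells, and at 35.3 CPM in adult and 64.0 CPM in newborn lymphatic endothelial cells. PGF, which binds FLT1, stood at 17.3 CPM (10.1 to 27.7) in adult and 16.5 CPM in newborn fibroblasts. In blood endothelial cells it stood at 11.2 CPM (6.28 to 18.5) in the adult and 10.4 CPM on 2 UMIs in the newborn. Adult luminal cells had 57 UMIs of PGF (4.13 CPM).

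KDR (ENSBTAG00000000782) was highest in lymphatic, not blood, endothelial cells in the adult. The blood endothelial gate was not split into capillaries, veins and arteries. Lymphatic endothelial cells had 182 CPM (175 to 189) with a UMI in 49.8% of barcodes, and blood endothelial cells 56.1 CPM (44.1 to 70.3) with a UMI in 25.7%. In the newborn the values were 149 CPM (118 to 187) in lymphatic and 93.4 CPM (55.4 to 148) in blood endothelial cells, whose intervals overlapped. At 1000 UMIs per barcode, KDR was found in 21.5% of adult and 18.3% of newborn lymphatic endothelial cells, against 0.21% of adult T or NK cells. FLT4, the VEGFC receptor, stood at 277 CPM in adult and 91.1 CPM in newborn lymphatic endothelial cells. In blood endothelial cells FLT4 stood at 64.3 CPM in the adult and at 0 UMIs in the newborn, where 3 UMIs would be 15.6 CPM.

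Adult luminal epithelial cells also held KDR. They had 269 UMIs, 19.5 CPM (17.2 to 22.0), in 182 of 855 barcodes, and 1.92% (1.08 to 3.14) of them had a UMI after thinning, against 0.21% (0.115 to 0.352) of T or NK cells, which stood at 2.86 CPM. Beside their 269 UMIs of KDR, luminal cells had 56 UMIs of FLT4 and 17 UMIs of ANGPT2. Lymphatic endothelial cells had 3902 UMIs of FLT4 and 2214 UMIs of ANGPT2 beside 2571 of KDR. Luminal cells held 8.38% of adult KDR UMIs and lymphatic endothelial cells 80.1%. Milk-secreting cells, at a median depth of 37839.5 UMIs, had 13 UMIs (0.656 CPM).

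FLT1 (ENSBTAG00000016915) parted the endothelial cells, being high in the blood kind and near 0 in the lymphatic kind. Blood endothelial cells had 90.5 CPM (75.1 to 108) in the adult and 192 CPM (135 to 265) in the newborn, with a UMI in 36.3% of adult and 56% of newborn barcodes. Lymphatic endothelial cells had 5 UMIs among 2545 adult barcodes (0.354 CPM) and 0 UMIs among 73 newborn barcodes, where 3 UMIs would be 5.82 CPM. The level in blood endothelial cells over all other gated barcodes was 272-fold (176 to 437) in the adult and 2030-fold in the newborn, where all other gates together had 6 UMIs. NRP1, a co-receptor of VEGFA, went with the blood side at 83.0 CPM in adult and 98.6 CPM in newborn blood endothelial cells, beside 0.851 CPM in adult lymphatic ones. NRP2, a co-receptor of VEGFC, stood at 22.3 CPM (19.9 to 24.9) in adult lymphatic and 8.98 CPM (4.64 to 15.7) in adult blood endothelial cells. Its newborn values, 13.6 CPM on 7 UMIs in lymphatic and 10.4 CPM on 2 UMIs in blood endothelial cells, had overlapping intervals.

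ANGPT2 (ENSBTAG00000011034) was mainly a lymphatic endothelial transcript. Adult lymphatic endothelial cells had 157 CPM (150 to 164) with a UMI in 31.2% of barcodes, against 13.5 CPM (7.98 to 21.3) in blood endothelial cells and 2.15 CPM in T or NK cells. Newborn lymphatic endothelial cells had 211 CPM (174 to 255), against 1 UMI in blood endothelial cells. Of the 109 newborn UMIs, 45 came from 1 barcode, without which the level was 137 CPM. The 26 UMIs of adult macrophages (18.1 CPM) included 22 in 1 barcode.

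TEK (ENSBTAG00000020148), the angiopoietin receptor, was shared by both kinds of endothelium and was higher in the blood kind. It stood at 184 CPM (162 to 209) in adult and 182 CPM (127 to 253) in newborn blood endothelial cells, and at 75.7 CPM (71.2 to 80.4) in adult and 42.7 CPM (26.7 to 64.6) in newborn lymphatic endothelial cells. The blood and lymphatic intervals did not overlap in either library. The more numerous lymphatic cells held 71.2% of adult TEK UMIs and blood endothelial cells 16.4%. In the newborn library, blood endothelial cells held 21.3% and lymphatic ones 13.4%, while fibroblasts, with 93.5% of all UMIs of that library, held 59.1% at 1.58 CPM. TIE1, the partner receptor of TEK, stood at 31.97 CPM in adult and 33.0 CPM in newborn lymphatic endothelial cells and at 23.9 CPM in adult and 26.0 CPM in newborn blood endothelial cells. PTPRB, the phosphatase that restrains TEK, stood at 99.5 CPM in adult and 83.1 CPM in newborn blood endothelial cells. In lymphatic endothelial cells it stood at 35.6 CPM in the adult and 21.3 CPM on 11 UMIs in the newborn. ANGPT1 was rare, with 10 UMIs in adult fibroblasts (10.2 CPM) and 37 in newborn fibroblasts (0.604 CPM). Mast cells had 7 UMIs of ANGPT1 in the adult (8.89 CPM) and 4 in the newborn (4.94 CPM). ANGPT4, another angiopoietin, had 614 UMIs in newborn fibroblasts (10.0 CPM) and 5 in adult fibroblasts (5.09 CPM).

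**Figure D3:**
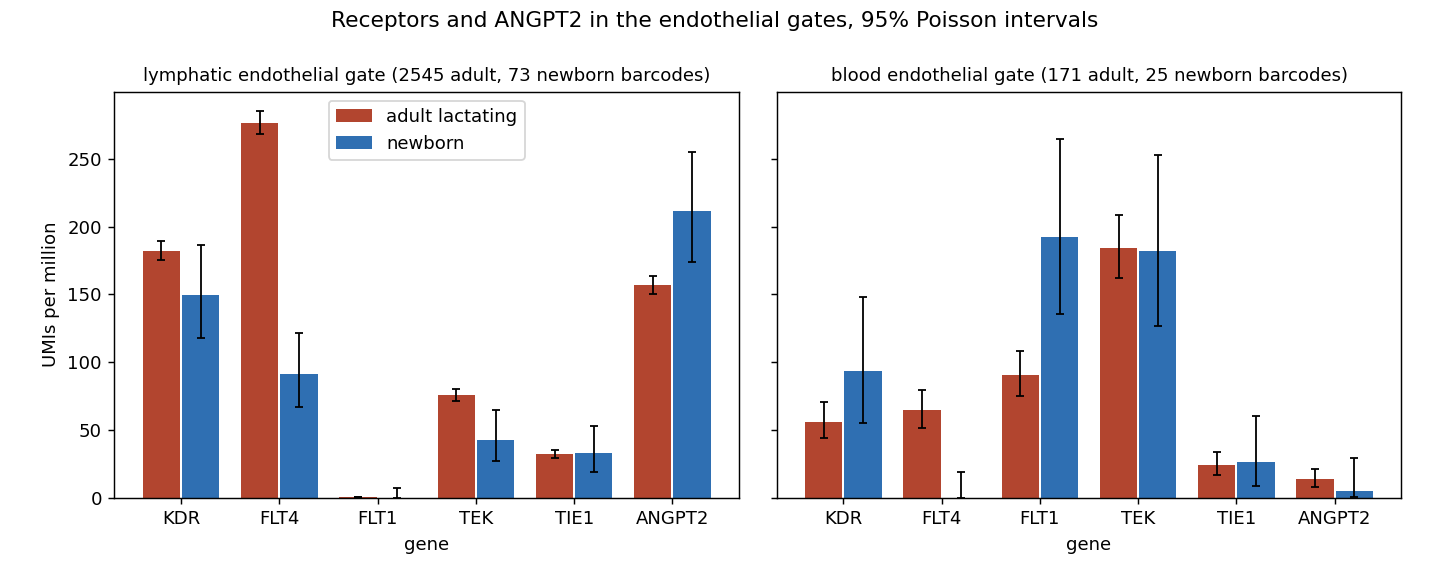
Level in CPM of KDR, FLT4, FLT1, TEK, TIE1 and ANGPT2 in lymphatic endothelial cells (2545 adult, 73 newborn barcodes) and blood endothelial cells (171 adult, 25 newborn barcodes). Bars start at 0 and whiskers are 95% Poisson intervals of 1 library each. FLT4 and ANGPT2 are high in the lymphatic cells, FLT1 is near 0 there, and TEK is higher in the blood endothelial cells.

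Within 1 endothelial gate, pairs of these transcripts were found together in part of the barcodes. KDR and FLT4 were found together in 36.5% (34.6 to 38.4) of adult and 27.4% (17.6 to 39.1) of newborn lymphatic endothelial barcodes. KDR and ANGPT2 were together in 19.7% of adult and 15.1% of newborn barcodes, KDR and TEK in 16.8% of adult and 12.3% of newborn ones, and the ligand ANGPT2 with its receptor TEK in 9.08% of adult and 6.85% of newborn ones. In blood endothelial cells KDR and FLT1 were together in 12.9% of adult and 24% of newborn barcodes. FLT4 was found in 73.3% of adult lymphatic barcodes with KDR and in 53.3% of those without it. In newborn lymphatic barcodes ANGPT2 was found in 30.6% of those with KDR and 35.1% of those without it. For every other pair named here, the second gene was more frequent in barcodes with the first than without it. Depth moved with these shares: adult lymphatic barcodes with a KDR UMI had a median of 4097 UMIs and those without had 2279, and its part in the shares was not tested.

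PDGFB (ENSBTAG00000021697) had no single source in the adult. Among gates of at least 50 barcodes, macrophages had 66.3 CPM (53.6 to 81.0), lymphatic endothelial cells 54.4 CPM (50.7 to 58.4), luminal cells 45.0 CPM (41.5 to 48.7) and T or NK cells 41.0 CPM (38.4 to 43.7), and each pair of neighbours in this order except the lymphatic and luminal one had overlapping intervals. Blood endothelial cells had 25.4 CPM (17.6 to 35.5). Fibroblasts had 3 UMIs (3.05 CPM), milk-secreting cells 1.21 CPM and mast cells 10.2 CPM. After thinning, PDGFB was found in 5.996% of lymphatic endothelial cells, 5.91% of macrophages, 5.23% of blood endothelial cells, 4.86% of luminal cells and 3.91% of T or NK cells, against 0.585% of mast cells. T or NK cells held 33.6% of its UMIs, lymphatic endothelial cells 28.2% and luminal cells 22.8%.

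The newborn library gave few UMIs of PDGFB. T or NK cells had 11 UMIs (23.1 CPM, 11.5 to 41.3), lymphatic endothelial cells 6 UMIs (11.6 CPM), of which 5 came from 1 barcode, and blood endothelial cells 1 UMI (5.19 CPM). The 12197 fibroblasts had 9 UMIs (0.147 CPM). PDGFA, the ligand of PDGFRA, stood in the adult at 93.6 CPM in luminal cells, 173 CPM on 15 UMIs in basal cells, 73.7 CPM in mast cells, 44.6 CPM in lymphatic and 38.2 CPM in blood endothelial cells, and 31.7 CPM in milk-secreting cells. In the newborn it stood at 68.0 CPM (51.2 to 88.5) in mast cells, 64.0 CPM (44.0 to 89.9) in lymphatic endothelial cells and 3.85 CPM in fibroblasts.

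PDGFRA (ENSBTAG00000007173) was a fibroblast transcript in both libraries. Adult fibroblasts had 489 CPM (446 to 535) with a UMI in 71.5% of barcodes, and newborn fibroblasts 140 CPM (137 to 143) with a UMI in 36.6%. At 1000 UMIs per barcode the shares were 48.1% (41.2 to 55.1) in adult and 12.3% (11.7 to 12.9) in newborn fibroblasts, against 0.075% of adult and 2.15% (0.262 to 7.55) of newborn T or NK cells. Other adult gates with more than 1 UMI of the gene had at most 1.23 CPM. In the newborn library macrophages had 75.9 CPM on 11 UMIs, blood endothelial cells 36.3 CPM on 7 UMIs and mast cells 12.4 CPM on 10 UMIs. These gates also held fibroblast markers: the 10 markers summed to 2886 CPM in newborn blood endothelial cells and 1619 CPM in newborn mast cells, beside 28843 CPM in newborn fibroblasts, and their part in the PDGFRA UMIs was not tested.

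PDGFRB (ENSBTAG00000002804) was found mainly in fibroblasts, which held 76.7% of its adult and 97.2% of its newborn UMIs. Adult fibroblasts had 23.4 CPM (14.8 to 35.1) on 23 UMIs and newborn fibroblasts 13.5 CPM (12.6 to 14.4) on 825 UMIs, with a UMI in 7.32% of adult and 6.37% of newborn barcodes. The single adult mural barcode held 1 UMI of PDGFRB among 1084 UMIs of all genes, and the single newborn one held none. A level in mural cells cannot be read from 1 barcode. PDGFRA and PDGFRB were found together in 6.91% (4.08 to 10.8) of adult and 2.57% (2.29 to 2.86) of newborn fibroblast barcodes. PDGFRL, a related gene without a kinase domain, stood at 348 CPM in adult and 462 CPM in newborn fibroblasts.

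Adult and newborn levels were compared inside 4 gates with at least 50 barcodes in both libraries, and, as an addition made after the data had been seen, in blood endothelial cells and neutrophils. In fibroblasts, 7 of the 9 genes had at least 20 UMIs over both libraries, of which 3 were at least 2-fold higher and 1 at least 2-fold lower in the adult, against 30.3% and 6.89% of all genes. VEGFC stood at 126 CPM in adult and 25.6 CPM in newborn fibroblasts, a ratio of 4.92 (4.07 to 5.92), and PDGFRA at 489 CPM in adult and 140 CPM in newborn cells, a ratio of 3.49 (3.17 to 3.82). VEGFA went the other way, at 59.0 CPM in adult and 186 CPM in newborn fibroblasts, a ratio of 0.317 (0.241 to 0.410). KDR, the third higher gene, rested on 4 adult and 21 newborn UMIs, and PDGFRB was 1.74-fold (1.10 to 2.63) higher in the adult, or 1.71 on the log2 scale, past 2-fold, when barcodes were thinned to 1000 UMIs. The median of all 12839 genes was itself shifted to the adult by 0.58 on the log2 scale, and relative to it VEGFC, PDGFRA and VEGFA stood at 1.72, 1.23 and -2.23. The T or NK markers summed to 177 CPM in adult and 4.81 CPM in newborn fibroblasts, and kept barcodes had a median mitochondrial share of 4.44% in adult tissue, against 1.29% in newborn tissue, and their part in these ratios was not tested.

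In lymphatic endothelial cells, 5 genes had at least 20 UMIs, of which 1 was higher and 1 lower, against 14.2% and 7.47% of all genes. PDGFB stood at 54.4 CPM in adult and 11.6 CPM in newborn cells, a ratio of 4.68 (2.14 to 12.8), or 2.23 on the log2 scale. It moved to 4.74 on the log2 scale without the barcode with most UMIs in each library, which left 1 newborn UMI, and to 4.07 with each barcode weighted equally. VEGFA stood at 18.8 CPM in adult and 54.3 CPM in newborn cells, a ratio of 0.346 (0.234 to 0.531). Fibroblasts held most newborn VEGFA UMIs, and the fibroblast markers summed to 107 CPM in adult and 772 CPM in newborn lymphatic endothelial cells, and their part in this ratio was not tested. KDR (1.22, 0.973 to 1.55) and TEK (1.77, 1.17 to 2.84) stayed within 2-fold. ANGPT2 was 0.742 (0.612 to 0.908) of its newborn level, and without the barcode with most UMIs in each library the direction turned, to 0.18 on the log2 scale. FLT4 was 3.03-fold (2.28 to 4.14) higher in the adult.

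VEGFA was also lower in adult mast cells, at 196 CPM against 414 CPM in newborn mast cells, a ratio of 0.473 (0.388 to 0.574), as the 1 gene of the 9 with enough UMIs there (17.5% of all genes were higher and 10.1% lower). In T or NK cells, 7 genes had enough UMIs, of which VEGFA was higher on 4 newborn UMIs and PDGFRA lower on 22 adult and 4 newborn UMIs (8.05% of all genes were higher and 9.46% lower). Neither was near its level in the leading gates, and PDGFB, which was, stood at 1.78 (0.988 to 3.57). In blood endothelial cells, with 25 newborn barcodes, 6 genes had enough UMIs. FLT1 was lower in the adult at 0.471 (0.324 to 0.701) and VEGFA at 0.413 (0.225 to 0.80), PDGFB was higher on 1 newborn UMI, and TEK stood at 1.01 (0.709 to 1.49), against 13.7% of all genes higher and 11.1% lower. The fibroblast markers summed to 42.6 CPM in adult and 2886 CPM in newborn blood endothelial cells, and their part in these ratios was not tested. VEGFA in neutrophils stood at 1.27 (0.695 to 2.60), within 2-fold (14.1% of all genes were higher and 21.8% lower). When a level of at least 10% of that in the leading gate was also asked for, 2 genes were higher and 1 lower in fibroblasts (29.6% and 7.11% of all genes), 1 and 1 in lymphatic endothelial cells (13.7% and 7.35%), 1 and 2 in blood endothelial cells (13.0% and 11.2%), 0 and 1 in mast cells (16.6% and 9.14%), 0 and 0 in T or NK cells (7.59% and 9.19%) and 0 and 0 in neutrophils (13.4% and 22.4%).

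**Figure D4:**
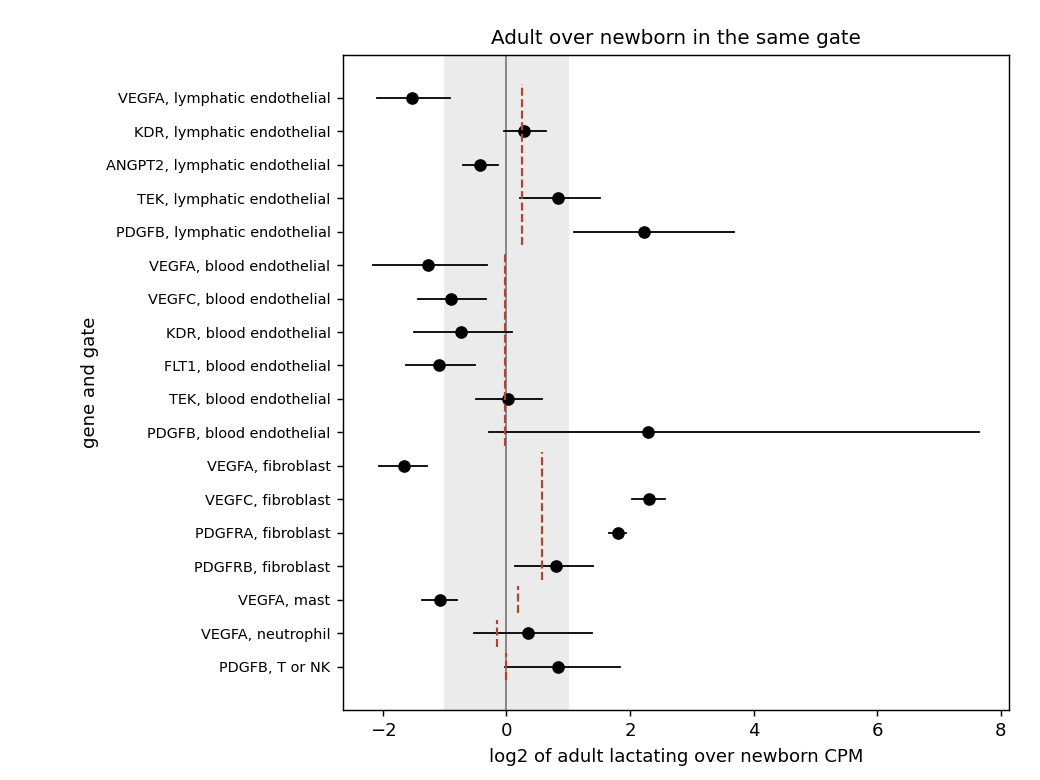
Ratio of adult over newborn CPM on a log2 axis for the 18 pairs of gene and gate with at least 20 UMIs and a level of at least 10% of the leading gate, with exact 95% intervals. The grey band marks changes within 2-fold and the dashed red line is the median of all genes of that gate. VEGFA lies left of the band in fibroblasts, lymphatic and blood endothelial cells and mast cells, and VEGFC and PDGFRA lie right of it in fibroblasts.

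Genes known to respond to low oxygen stood lower in the adult together with VEGFA in mast cells, lymphatic endothelial cells and fibroblasts. Of the 10 listed, 7 had enough UMIs in mast cells, and 0 were at least 2-fold higher and 7 lower, with a median of -1.64 on the log2 scale beside 0.18 for all genes, of which 10.1% were lower. Examples are the glycolytic enzyme PGK1, at 260 CPM in adult and 869 CPM in newborn mast cells, and the vessel-active peptide ADM, at 2.54 CPM in adult and 54.4 CPM in newborn ones. ADM stood at 478 CPM in newborn fibroblasts, whose markers summed to 55.9 CPM in adult and 1619 CPM in newborn mast cells, and their part in the mast cell values was not tested. In lymphatic endothelial cells 0 of 8 were higher and 5 lower (median -1.26 beside 0.24, and 7.47% of all genes lower), with NDRG1 at 130 CPM in adult and 450 CPM in newborn cells. In fibroblasts 0 of 9 were higher and 4 lower (median -1.22 beside 0.58, and 6.89% of all genes lower), with the glucose transporter SLC2A1 at 5.09 CPM in adult and 61.0 CPM in newborn cells. In T or NK cells 0 of 9 were higher and 3 lower (median -0.78, and 9.46% of all genes lower). VEGFA parted from them there, being counted as higher in the adult on 4 newborn UMIs. In blood endothelial cells 1 of 5 was higher and 2 lower (median -0.93, and 13.7% of all genes higher and 11.1% lower). In neutrophils 0 of 5 were higher and 2 lower (median -0.33, and 21.8% of all genes lower), while VEGFA stayed within 2-fold. With a level of at least 10% of the leading gate also required, 6 of 6 were lower in mast cells (9.14% of all genes). The lower genes were then 5 of 7 in lymphatic endothelial cells (7.35%), 3 of 6 in fibroblasts (7.11%) and 1 of 5 in T or NK cells (9.19%).

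The other ligands and receptors stood on the adult side in fibroblasts, where 7 of 12 were higher and 0 lower (median 1.19 beside 0.58, and 30.3% of all genes higher). VEGFD was 6.88-fold (5.55 to 8.43), NRP1 5.90-fold (4.84 to 7.13) and VEGFB 2.04-fold (1.68 to 2.46) higher, while FLT4 was counted as higher on 4 adult UMIs. In lymphatic endothelial cells 1 of 8 was higher and 1 lower (median 0.33), near the 14.2% and 7.47% of all genes there. In blood endothelial cells 2 of 6 were higher and 0 lower (median 0.07, and 13.7% and 11.1% of all genes), and in mast cells 1 of 4 was higher and 1 lower (median 0.27, and 17.5% and 10.1%). With a level of at least 10% of the leading gate also required, 6 of 10 were higher and 0 lower in fibroblasts (29.6% and 7.11% of all genes). The same rule gave 1 of 6 higher and 0 lower in lymphatic endothelial cells (13.7% and 7.35%). Mast cells then had 1 of 3 higher and 0 lower (16.6% and 9.14%). A list of 10 genes, most of which restrain vessel growth or growth factor signals, gave 7 higher and 1 lower in fibroblasts (median 1.31, and 30.3% and 6.89% of all genes). CCBE1, 1 of the 7 at 11.2 CPM in adult and 3.03 CPM in newborn fibroblasts, promotes the processing of VEGFC and so is no restraining gene. SERPINF1, which inhibits vessel growth, stood at 1981 CPM in adult and 692 CPM in newborn cells, and THBS1, the 1 lower gene, at 129 CPM in adult and 555 CPM in newborn ones. In lymphatic endothelial cells 0 of 8 of them were higher and 2 lower (median -0.51, and 14.2% and 7.47% of all genes), among them the semaphorin SEMA3F at 25.7 CPM in adult and 114 CPM in newborn cells. In mast cells 0 of 5 were higher and 4 lower (median -2.13, and 17.5% and 10.1%). T or NK cells had 1 of 6 higher and 3 lower (median -1.59, and 8.05% and 9.46%). Blood endothelial cells had 0 of 5 higher and 1 lower (median -0.32, and 13.7% and 11.1%), and the 1 gene counted in neutrophils was higher. With the level rule, the restraining list gave 7 of 9 higher and 1 lower in fibroblasts. Lymphatic endothelial cells then had 0 of 6 higher and 1 lower. In mast cells 0 of 2 were higher and 1 lower (16.6% and 9.14% of all genes), as in T or NK cells (7.59% and 9.19%). Fibroblast markers summed to 1619 and 1187 CPM in newborn mast and T or NK cells, against 55.9 and 54.1 CPM in adult ones. Their part was not tested.

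Genes of the endothelial response to VEGF and Notch signals went both ways. In lymphatic endothelial cells 3 of 11 were higher and 2 lower (median -0.12, and 14.2% and 7.47% of all genes), with the receptor NOTCH1 at 60.5 CPM in adult and 25.2 CPM in newborn cells and UNC5B, a receptor of guidance cues, at 110 CPM in adult and 409 CPM in newborn ones. In blood endothelial cells 3 of 7 were higher and 1 lower (median 1.12, and 13.7% and 11.1% of all genes), with NOS3, the endothelial nitric oxide synthase, at 147 CPM in adult and 67.5 CPM in newborn cells and the Notch ligand DLL4 at 21.7 CPM in adult and 72.7 CPM in newborn ones. In fibroblasts 1 of 11 was higher and 1 lower (median 0.19, and 30.3% and 6.89% of all genes). The higher one was the chemokine receptor CXCR4, at 181 CPM in adult fibroblasts and 2006 CPM in adult T or NK cells. In mast cells 3 of 5 were higher and 2 lower (median 1.36, and 17.5% and 10.1% of all genes). With a level of at least 10% of the leading gate also required, 0 of 4 were higher and 0 lower in fibroblasts (29.6% and 7.11% of all genes). Lymphatic endothelial cells then had 2 of 9 higher and 2 lower (13.7% and 7.35%). Blood endothelial cells had 2 of 6 higher and 1 lower (13.0% and 11.2%), and mast cells 2 of 3 and 1 (16.6% and 9.14%). ESM1, a marker of VEGF-stimulated tip cells, was luminal in the adult at 62.3 CPM, beside 1.06 CPM in lymphatic endothelial cells.

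Newborn fibroblasts varied in these genes between groups defined by other markers. The 116 barcodes ranked highest for contractile genes (CNN1, OXTR, DES, MYLK) had VEGFA at 339 CPM, against 184 CPM in the rest of the newborn fibroblasts, a ratio of 1.85 (1.65 to 2.07). Their PDGFRA stood at 37.7 CPM, against 142 CPM in the rest, a ratio of 0.266 (0.185 to 0.370). Their VEGFC was 1.74-fold (1.25 to 2.38) that of the rest. They were deeper, at a median of 6934.5 UMIs against 4783 UMIs in the rest, and its part in the ratios was not tested.

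The 1187 barcodes ranked highest for PI16, CLEC3B and DPP4 had VEGFA at 117 CPM, against 194 CPM in the rest, a ratio of 0.600 (0.557 to 0.647). The 1220 barcodes ranked highest for PTX3, CCL2 and SAA3 had PDGFRA at 1.39-fold (1.31 to 1.47), PDGFRB at 0.613 (0.472 to 0.785) and VEGFD at 0.445 (0.335 to 0.580) of the rest. The 847 barcodes ranked highest for POSTN, ASPN and COL12A1 went the opposite way for the receptors. Their PDGFRA stood at 88.8 CPM, against 144 CPM in the rest, and their PDGFRB at 19.6 CPM, against 12.99 CPM in the rest. The 798 barcodes ranked highest for PPARG, LPL and FABP4 had VEGFD at 1.70-fold (1.36 to 2.09) and PDGFRB at 0.654 (0.454 to 0.913) of the rest.

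**Figure D5:**
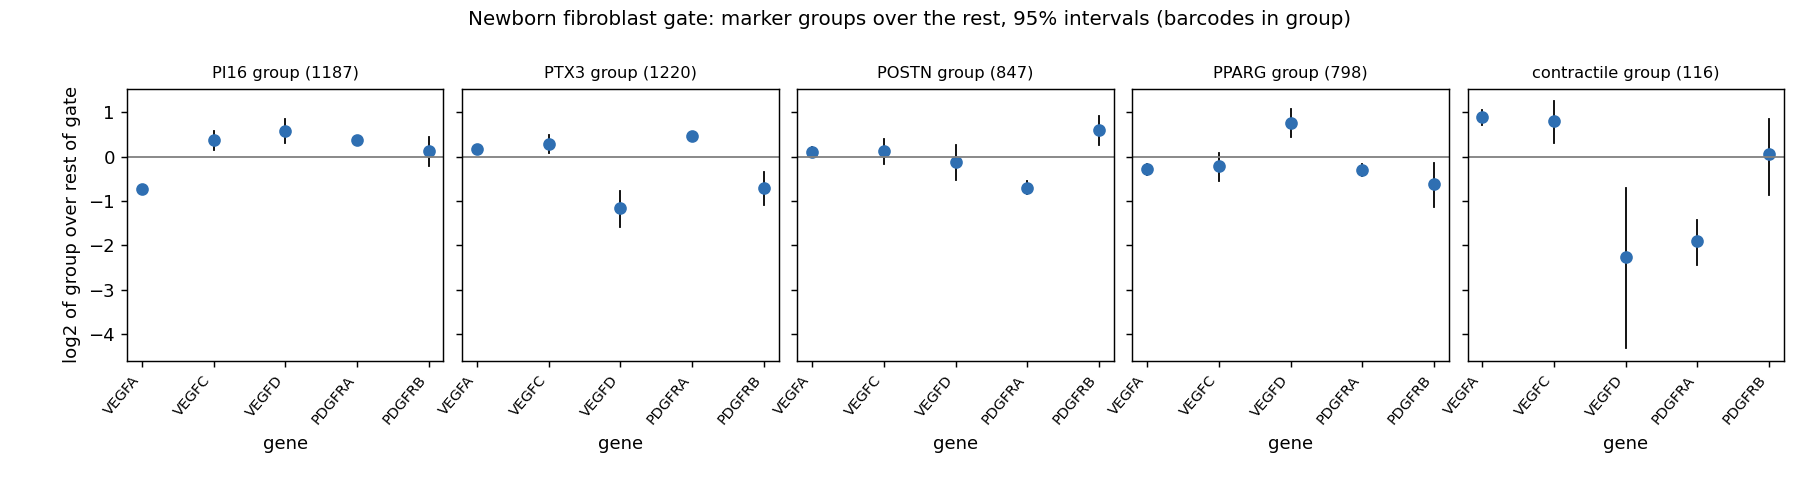
Level in 5 marker groups of newborn fibroblasts over the rest of the newborn fibroblasts, as log2 ratios with exact 95% intervals, for VEGFA, VEGFC, VEGFD, PDGFRA and PDGFRB. The contractile group (116 barcodes) is highest for VEGFA and lowest for PDGFRA and VEGFD.

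Genes with the most similar pattern over the 18 gates of at least 20 barcodes in both libraries were found by Pearson correlation of log2(CPM + 1) among 12602 genes. The 18 points share 2 libraries and their depth, so the values are a description. VEGFA went with the immediate early genes JUNB (0.88), IER2 (0.87) and FOS (0.85), which also respond to tissue dissociation. KDR went with FZD6 (0.97) and ITGB4 (0.96), which were also the genes nearest to TEK (0.94 and 0.92). VEGFC was nearest to NPR1 (0.95), FLT1 to CYYR1 (0.91), ANGPT2 to PALD1 (0.94), PDGFB to NUDT14 (0.84), PDGFRA to the mesenchymal transcription factor PRRX1 (0.95) and PDGFRB to GPR1 (0.98).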

How the data were processed

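For each of 2 libraries the authors deposited a table of UMI counts, not normalised, of every gene in every cell barcode. The submitters' processing notes name Cell Ranger 3.1.0. Genome build: not given in the sources used here. No coordinates or sequences are therefore printed.

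Barcodes with at least 300 genes and at most 20% mitochondrial UMIs were kept. A barcode entered a gate when it held at least 3 UMIs of at least 2 of the gate's markers, above a threshold per 10000 UMIs set from marker UMIs alone (40 for fibroblasts, 24 endothelial, 32 epithelial and plasma, 16 macrophage and neutrophil, 12 mast, 8 T or NK, dendritic and Schwann, 6 B, 4 mural and adipocyte). Endothelial barcodes were lymphatic or blood by the larger marker sum. Epithelial barcodes were basal when basal marker UMIs exceeded luminal ones. The others were milk-secreting with at least 2500 UMIs of milk genes per 10000, and luminal below that. Barcodes that met no gate but held that share of milk genes also counted as milk-secreting. Barcodes meeting several gates, none leading by 3-fold, were left out (580 adult, 153 newborn). Scrublet (scanpy 1.11.5) marked 0 doublets in both libraries at its automatic threshold, which did not work, so its highest scores were removed only as an alternative (1868 adult, 1511 newborn). UMIs were summed per gate and library. Ratios have exact conditional binomial intervals of 95%, and a change was counted at 2-fold between libraries or 4-fold between gates, with at least 20 UMIs in all, at least 3 on the higher side and a count of 0 set to 3. For shares at a common depth, barcodes were thinned to 1000 UMIs. Groups of newborn fibroblasts were the top 10% by share of the group's markers, with at least 3 of their UMIs. With 1 library per stage no test was made. The ratio script was tested on simulated data.

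All 9 members were named, with 3 genes of the most similar pattern for each and genes of 4 pathway lists. Members, lists and gates were chosen with earlier results of these data known, and 8 alternatives were added after the data had been seen. Python 3.11.15, numpy 2.4.6, scipy 1.17.1, pandas 2.3.3 and matplotlib 3.10.9 were used.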

Additional observations from a re-analysis of the deposited data

Results flagged for a closer look

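The ratio of adult over newborn PDGFRA had opposite signs in fibroblasts and in T or NK cells. In fibroblasts it was 1.80 on the log2 scale (489 CPM in adult and 140 CPM in newborn cells), and in T or NK cells -3.09 (0.985 CPM on 22 adult UMIs and 8.39 CPM on 4 newborn UMIs). The difference between the cell types was not tested. The fibroblast markers summed to 54.1 CPM in adult and 1187 CPM in newborn T or NK cells, and their part in the second ratio was not tested.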

How the results depend on the processing

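No paired analysis was possible because each stage has 1 library. No value past a limit of fold changed its sign under the alternatives. Without the cell filter, or with gate thresholds doubled or halved, all 47 main values stayed within their intervals. With at least 500 genes and at most 10% mitochondrial UMIs, VEGFA stood at 200.3 CPM in adult neutrophils (2.73 on the log2 scale over other gates) and 465 CPM in newborn mast cells (1.35). With barcodes of several gates given to the highest, KDR in adult lymphatic cells stood at 4.51 over other gates and PDGFRA in newborn fibroblasts at 2.56. With the highest Scrublet scores removed, ANGPT2 in adult lymphatic cells stood at 166 CPM (7.04 over other gates) and PDGFRA in adult fibroblasts at 630 CPM (9.75), and the log2 ratios of adult over newborn fibroblasts were -2.38 for VEGFA and 2.14 for PDGFRA. Without milk protein and mitochondrial genes in the total, ANGPT2 and KDR in adult lymphatic cells stood at 164 CPM (5.87) and 191 CPM (4.24), and over other gates PDGFB in macrophages stood at 0.72, TEK in blood endothelial cells at 3.26 and VEGFA in neutrophils at 2.70. Adult over newborn fibroblasts, VEGFA, VEGFC and PDGFRA stood at -2.23, 1.72 and 1.23 when scaled by the median of ratios. With the median over well-counted genes, VEGFC stood at 1.99 and PDGFRA at 1.49. With thinning to 1000 UMIs the fibroblast values were -2.94 for VEGFA, 2.57 for VEGFC, 2.25 for PDGFRA and 1.71 for PDGFRB, which then passed 2-fold, and ANGPT2 in lymphatic cells turned to 0.43, against -0.43 at full depth. With each barcode weighted equally the ratios were -2.44 for VEGFA, 2.57 for VEGFC and 2.04 for PDGFRA in fibroblasts, and 0.11 for ANGPT2 and 4.07 for PDGFB in lymphatic cells. The levels were then 165, 262 and 648 CPM for adult lymphatic ANGPT2, adult lymphatic KDR and adult fibroblast PDGFRA, and 153, 199.8, 317, 158 and 17.5 CPM for newborn lymphatic ANGPT2, lymphatic KDR, blood endothelial FLT1, fibroblast PDGFRA and fibroblast PDGFRB. Without the barcode with most UMIs, ANGPT2 and PDGFB in lymphatic cells stood at 0.18 and 4.74, and newborn lymphatic ANGPT2 at 137 CPM. With levels of at least 10% of the leading gate required, 0 genes were higher and 0 lower in T or NK cells, against 1 and 1. The causes of these moves were not tested. With 25 newborn blood endothelial barcodes and 246 adult fibroblasts, intervals of single genes stay wide.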

Other observations

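PDGFB differed among adult T or NK cells when they were parted by CD3 and killer genes, a split added after the data had been seen. It stood at 75.6 CPM (59.4 to 94.95) in 328 barcodes with killer genes and no CD3, as in NK cells, at 49.5 CPM (45.4 to 53.8) in 2861 with both and at 19.1 CPM (15.5 to 23.3) in 1782 with CD3 and no killer genes. The 3 intervals did not overlap, and the median depths were 2985, 3228 and 2660 UMIs. The groups held 74, 550 and 96 of the 916 PDGFB UMIs in all 6911 T or NK barcodes. The remaining barcodes fell in none of the groups and are not compared here.

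Adult lymphatic endothelial cells with RELN, a secreted glycoprotein of lymphatic vessels, held more ANGPT2, at 173 CPM (166 to 182) in 1603 barcodes, against 107 CPM (96.9 to 119) in 942 barcodes without it. PDGFB stood at 58.7 CPM with RELN and 41.6 CPM without it, and KDR at 188 CPM with RELN and 164 CPM without it. FLT4, at 274 CPM with RELN and 284 CPM without it, had overlapping intervals. RELN is a gate marker, and barcodes with it were deeper, at a median of 3482 UMIs, against 2297 UMIs without it, and its part in these values was not tested.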
